A study of Mus musculus with 4 samples.

Results

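Cell cycle and DNA replication genes were followed in lung RNA, by the 47 gene symbols of a fixed list among 23284 genes in the deposited tables. All 47 were found in both tables, and they were divided by role into 18 genes of S phase and 29 genes of mitosis. The RNA came from lungs of C57BL/6 mice in 4 groups with 1 library each. Mice lacking Il22 (genotype IL22-/-) and wild-type mice both received house dust mite (HDM), the allergen of the asthma model, for sensitization and then challenge. RNA was made from the lung 48 h after that challenge ended. Separate wild-type mice had received recombinant IL-22 or phosphate-buffered saline (PBS) through the trachea, with no allergen named in the labels, and their lungs were taken 24 h later. Neither the ages of the mice, nor how many mice made up a library, nor how the knockout was made is given in the sources used here. The values are FPKM, which count fragments per transcript length and library size, so levels of different genes can be compared per length.

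A cell that divides first copies its DNA in S phase and then separates the copies in mitosis. Licensing factors load the MCM helicase onto replication origins in G1, E2F transcription factors and cyclin E start S phase, and a burst of enzymes supplies nucleotides and builds the new strand. As the cycle proceeds, the DREAM complex gives way to B-MYB and FOXM1. In G2 cyclin B with CDK1, the Aurora and Polo kinases, centromere proteins and kinesin motors are made for a short time. Many are then destroyed by the anaphase-promoting complex (APC/C). In a healthy adult lung few cells divide, while allergic inflammation is known to bring dividing lymphocytes, macrophages and epithelial cells.

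Depth was estimated from the whole-read steps of low FPKM values at 27.05 M reads in the knockout HDM library and 24.85 M in the wild-type HDM library. The IL-22 library had 28.55 M and the PBS library 20.1 M. Every member rested on at least 25 estimated reads in the knockout HDM library and 64 in its wild-type counterpart, and on at least 27 with IL-22 and 20 with PBS. Il22 itself was listed at 0 in the knockout HDM library, against 0.362 FPKM (8 reads) in the wild-type HDM library. Its near copy Iltifb was at 0 in the knockout and 0.220 FPKM (5 reads) in the wild-type HDM library, so few reads bear on the genotype. Both genes were at 0 in the IL-22 and PBS libraries. Lung identity was plain in each library, with Sftpc, the surfactant gene of alveolar type II cells, between 30749 and 37820 FPKM. Since a group is 1 library, no difference below has a replicate check and no p-value was computed. Intervals in brackets are exact binomial 95% intervals of the ratio of estimated reads, and they cover counting error only, not the spread between mice.

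With HDM, all 47 genes had lower FPKM in the Il22 knockout library than in the wild-type library. The mitosis genes stood furthest apart, with a median FPKM ratio of 0.318 (knockout over wild type, range 0.207 to 0.559), while the S phase genes had a median ratio of 0.600 (0.221 to 0.887). The counting interval of the ratio lay below 1 for all 18 S phase and all 29 mitosis genes. Such intervals were not computed for all genes, so how common they are in this pair is not known. On the scale of log2(FPKM + 1), the median difference of knockout minus wild type was -1.06 over the 29 mitosis genes and -0.53 over the 18 S phase genes, where the median of all 13285 measured genes was 0.03 and 46.1% of them lay below 0. In bulk RNA, fewer dividing cells and less of these RNAs per cell cannot be told apart.

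A gene was called lower or higher where its difference of log2(FPKM + 1) was at least 1 in size and its mean FPKM in the pair at least 1, a filter that 43 members passed. Of these, 22 were called lower and none higher, against a background of 2.42% of all measured genes called lower and 0.549% called higher. Among the called genes were 18 of 26 measured mitosis genes and 4 of 17 measured S phase genes. Of these mitosis genes, Cdk1, Ccnb1, Melk, Aurkb and Plk1 were under 1 FPKM in the knockout and passed the filter only through the wild-type library. Counts among measured genes, here and by the plain ratio below, thus depend partly on the filter. The medians over all members given above use no filter. The added 1 in the logarithm understates low genes, as Melk shows with an FPKM ratio of 0.207 and a difference of only -1.09. By a plain FPKM ratio of 0.5 or less, a rule chosen after seeing the data, 24 of the 26 measured mitosis genes and 6 of the 17 measured S phase genes were lower, against 3.85% of all measured genes. The members nearest the size rule were Aurkb at -1.01 and Kif23 at -1.03 inside it, and Hmmr at -0.94 and Mcm5 at -0.92 outside it. Counting can be shared with an overlapping gene for 14 members, Ccne2, Mcm7, Gins2, Tk1, Ccna2, Foxm1, Plk1, Cdc20, Ube2c, Cdca8, Top2a, Kif20a, Nusap1 and Prc1, which have exon sequence in common with another annotated gene, on the opposite strand for 12 of them. Cdc6, Cenpe, Cenpf and Kif2c had a mean FPKM under 1 and were not called, with FPKM ratios of 0.507, 0.262, 0.318 and 0.318.

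**Figure D1:**
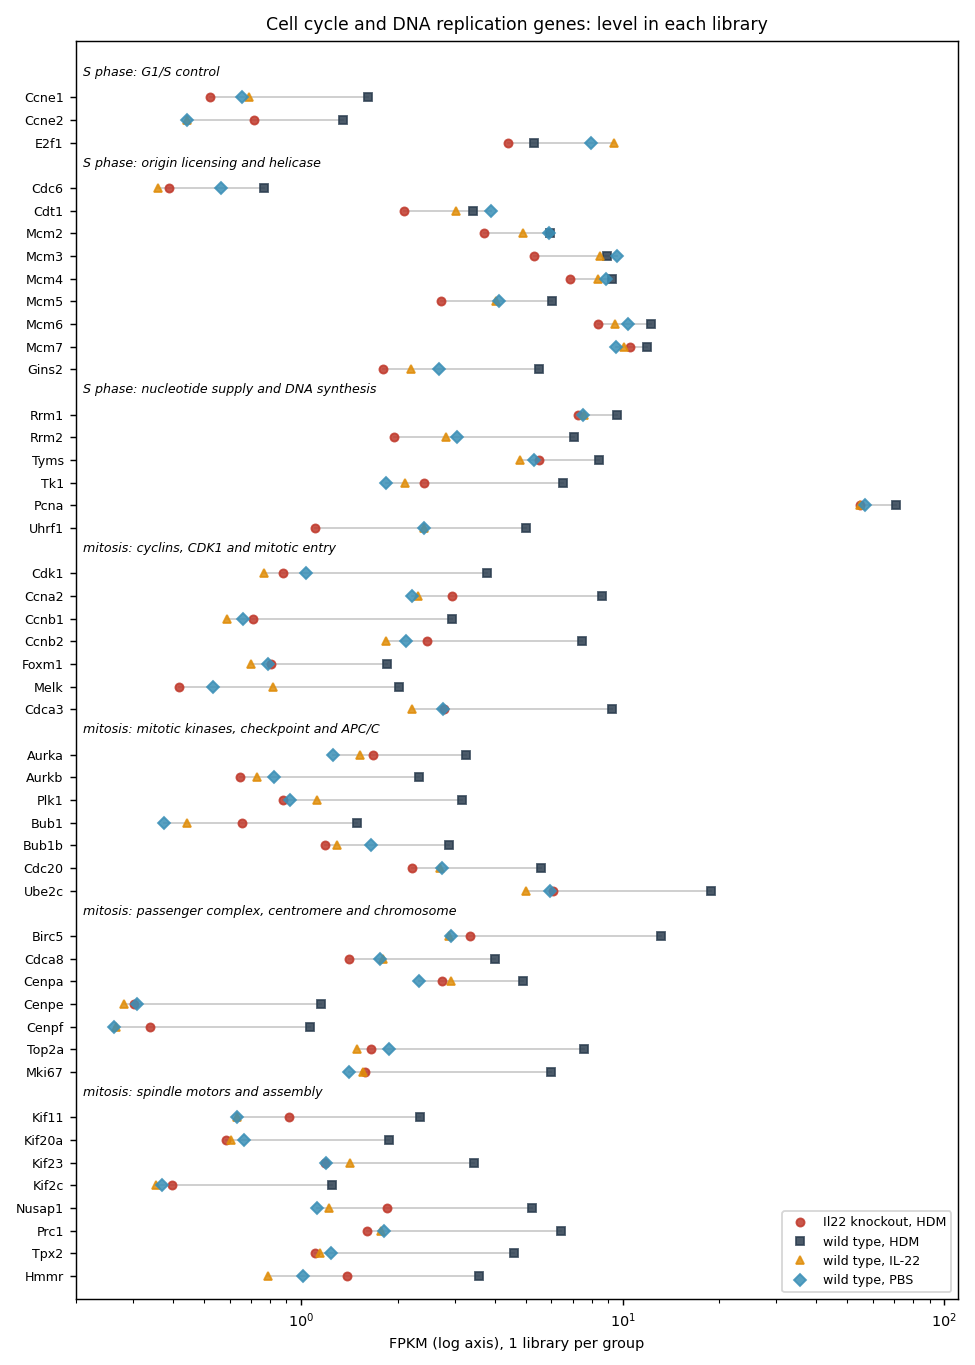
Level of each of the 47 genes in the 4 libraries, as FPKM on a log axis, with genes grouped by role. Each symbol is 1 library, and for 44 of 47 genes the wild-type HDM library holds the highest value.

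Cyclins and regulators of mitotic entry were among the genes that differed most. Cdk1, the kinase that drives entry into mitosis, was at 0.880 FPKM in the knockout HDM library and 3.77 in the wild-type HDM library, and at 0.767 with IL-22 and 1.03 with PBS. Its ratio in the HDM pair was 0.233 (0.185 to 0.291). The wild-type HDM library was thus the only high one of the 4, and the others lay near 1 FPKM. Ccnb1, the B-type cyclin that activates CDK1, was at 0.709 FPKM in the knockout HDM library, 2.95 in the wild-type HDM library, 0.588 with IL-22 and 0.661 with PBS. The order was the same for Ccnb2, at 2.46, 7.46, 1.83 and 2.13 FPKM in these libraries. Ccna2, the cyclin of S and G2 phase, was at 2.94, 8.61, 2.30 and 2.22 FPKM, so it too was high in wild type with HDM alone. Cdca3, which triggers mitotic entry, had an HDM difference of -1.44, and Melk, a kinase of dividing cells, had 31 estimated reads in the knockout library and 138 in the wild-type library. Foxm1, the transcription factor of G2 genes, was at 0.807 and 1.85 FPKM in the HDM pair, a ratio of 0.436 (0.338 to 0.556) and a difference of -0.66, short of the size rule.

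Of the 7 kinase, checkpoint and APC/C genes, 4 were called lower. Ube2c, the ubiquitin-conjugating enzyme of the APC/C, was the most abundant mitosis gene in each library, at 6.07 FPKM in the knockout HDM library, 18.8 in the wild-type HDM library, 4.997 with IL-22 and 5.94 with PBS. Its HDM ratio was 0.323 (0.262 to 0.397). Cdc20, the activator of the APC/C at anaphase, had 2.22 FPKM in the knockout and 5.56 in the wild-type HDM library, and Plk1, the Polo kinase, had 0.877 and 3.16. Aurkb, the Aurora kinase of the chromosomal passenger complex, was at 0.646 and 2.32. The remaining 3 were short of the size rule, with HDM differences of -0.82 for Bub1b and -0.59 for Bub1, kinases of the spindle checkpoint, and -0.67 for Aurka, the Aurora kinase of centrosomes. By FPKM ratio, Aurka at 0.513 (0.383 to 0.682) and Cenpa at 0.559 (0.429 to 0.729) were the mitosis genes closest to equal levels in the HDM pair. Ube2c shares exon sequence with Tnnc2 on the opposite strand.

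Passenger, centromere and chromosome genes included the largest differences of all members. Birc5 (survivin), a subunit of the chromosomal passenger complex, was at 3.35 FPKM in the knockout HDM library, 13.1 in the wild-type HDM library, 2.89 with IL-22 and 2.94 with PBS, with an HDM difference of -1.70. Top2a, which untangles DNA before the chromosomes part, was at 1.65, 7.57, 1.49 and 1.87 FPKM in the same libraries, a ratio of 0.217 (0.187 to 0.252). Mki67, whose product is the Ki-67 antigen of dividing cells, was at 1.58, 6.00, 1.56 and 1.40 FPKM, and rested on 420 estimated reads in the knockout HDM library and 1470 in the wild-type HDM library. In all of these the knockout HDM library lay within 1 FPKM of the IL-22 and PBS libraries and the wild-type HDM library stood apart. Cdca8 (borealin), another passenger subunit, had an HDM difference of -1.06. Among the centromere genes, Cenpa, the histone H3 variant that marks the centromere, was at 2.74 and 4.90 FPKM in the HDM pair. The large kinetochore proteins Cenpe and Cenpf were low throughout, at 0.302 and 0.338 FPKM in the knockout library against 1.15 and 1.06 in the wild-type library.

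Spindle genes had HDM ratios between 0.241 and 0.392, and 4 of the 7 measured were called lower. Tpx2, an activator of Aurora A on spindle microtubules, was at 1.11 FPKM in the knockout HDM library, 4.59 in the wild-type HDM library, 1.15 with IL-22 and 1.24 with PBS. Prc1, which bundles microtubules in the spindle midzone, was at 1.61, 6.42, 1.77 and 1.81 FPKM in these libraries, with an HDM difference of -1.51. Both were high in the wild-type HDM library alone, with FPKM ratios of 0.241 for Tpx2 and 0.250 for Prc1 in the HDM pair. Nusap1, a spindle microtubule protein, and the kinesin Kif23, which acts in cytokinesis, were called lower at -1.13 and -1.03, and Nusap1 shares exon sequence with Oip5 on the opposite strand. The kinesins Kif11 and Kif20a, and Hmmr, a spindle assembly protein, had HDM differences of -0.80, -0.86 and -0.94. Kif2c, the microtubule-depolymerizing kinesin, had 28 estimated reads in the knockout library and 82 in the wild-type library.

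The promoters of the mitosis genes share sequence features, which were searched for because they are known for this class of genes. A high share was therefore likely in advance. Genes of late cell cycle are known for a CCAAT box, read by NF-Y, and for the cell cycle genes homology region (CHR), which the DREAM and B-MYB complexes read. Promoter windows of RefSeq (GRCm38.p6) covering 250 bases before to 50 bases after the start were found for 24 of the 29 mitosis genes, and were searched on both strands for CCAAT and for the CHR as TTTGAA or TTTAAA. A CHR match was found in 21 of the 24 genes (87.5%), against 30.6% of 27025 genes with a window of the same length. A CCAAT match was found in 20 (83.3%, against 41.1%), and both in 19 (79.2%, against 12.2%). For 18 of the 24, a CHR match began within 60 bases before or 50 bases after the start, a range chosen after some positions were seen. The share of all genes with a match in this range was not counted, so the number describes these genes only. Melk and Nusap1, both called lower, had neither match in their windows. A match is a run of letters and not a shown binding site.

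The 4 mitosis genes with a window and the largest HDM differences are shown from 200 bases before to 30 bases after the start, 5′ to 3′ along the gene, with CCAAT and CHR matches on either strand in capitals (a match on the other strand appears as its reverse complement). Birc5 lies at chr11:117849037-117849266, plus strand. Top2a lies at chr11:99024160-99024389, minus strand. Prc1 lies at chr7:80294251-80294480, plus strand, the first of its windows in the table. Ube2c lies at chr2:164769729-164769958, plus strand. In Top2a, Prc1 and Ube2c a CHR match sits close to the start downstream of at least 1 CCAAT match, whereas the shown stretch of Birc5 holds neither, its sole CHR match lying further upstream.
Birc5: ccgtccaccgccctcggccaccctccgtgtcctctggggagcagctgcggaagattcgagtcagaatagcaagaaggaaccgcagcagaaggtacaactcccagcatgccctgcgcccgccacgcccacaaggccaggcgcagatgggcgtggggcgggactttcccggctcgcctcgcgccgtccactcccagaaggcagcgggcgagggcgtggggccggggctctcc
Top2a: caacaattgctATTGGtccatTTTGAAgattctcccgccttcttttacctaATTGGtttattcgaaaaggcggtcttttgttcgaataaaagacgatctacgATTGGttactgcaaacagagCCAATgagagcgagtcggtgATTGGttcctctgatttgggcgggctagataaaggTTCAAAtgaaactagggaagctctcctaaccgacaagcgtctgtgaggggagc
Prc1: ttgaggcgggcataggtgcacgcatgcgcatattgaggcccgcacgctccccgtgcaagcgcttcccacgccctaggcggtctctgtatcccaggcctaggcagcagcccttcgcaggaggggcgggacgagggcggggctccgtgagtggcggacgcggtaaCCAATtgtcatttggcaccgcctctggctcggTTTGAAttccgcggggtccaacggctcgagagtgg
Ube2c: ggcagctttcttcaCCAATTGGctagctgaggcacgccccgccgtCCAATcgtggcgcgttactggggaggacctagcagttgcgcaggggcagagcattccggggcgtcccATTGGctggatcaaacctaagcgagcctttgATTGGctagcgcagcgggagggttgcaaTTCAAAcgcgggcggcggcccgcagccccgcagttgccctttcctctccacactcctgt

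The S phase genes ran in the HDM pair from ratios as low as those of the mitosis genes to ratios close to 1, and 3 of the 6 measured genes of nucleotide supply and DNA synthesis were called lower. Uhrf1, which recruits the maintenance DNA methyltransferase to new DNA, was at 1.11 FPKM in the knockout HDM library, 5.02 in the wild-type HDM library, 2.41 with IL-22 and 2.41 with PBS, an HDM ratio of 0.221 (0.176 to 0.276). Rrm2, the cell-cycle-regulated subunit of ribonucleotide reductase, was at 1.94, 7.07, 2.81 and 3.05 FPKM in the same libraries. Its partner Rrm1, a stable subunit, was at 7.27, 9.62, 7.58 and 7.55 FPKM. The subunits of this enzyme thus had HDM ratios of estimated reads of 0.276 (0.219 to 0.344) for Rrm2 and 0.755 (0.684 to 0.832) for Rrm1, with intervals that do not overlap. Tk1, the thymidine kinase of S phase, was at 2.41 and 6.55 FPKM in the HDM pair and was called lower. Tyms, thymidylate synthase, was at 5.48 and 8.45 FPKM, a difference of -0.55, and its row carries the accession of a non-coding transcript of the gene. Pcna, the sliding clamp of DNA polymerase and the most abundant member, was at 54.7 FPKM in the knockout HDM library, 70.8 in the wild-type HDM library, 54.7 with IL-22 and 56.6 with PBS, with an HDM ratio of 0.772 (0.726 to 0.820).

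Origin licensing and helicase genes had a median HDM difference of -0.54, with 1 of 8 measured called lower. That gene was Gins2, a subunit of the GINS complex that activates the helicase, at 1.79 FPKM in the knockout HDM library, 5.51 in the wild-type HDM library, 2.19 with IL-22 and 2.69 with PBS. The 6 subunits of the MCM hexamer, which form one ring, had HDM ratios from 0.451 to 0.887. Mcm5 had the lowest at 0.451 (0.385 to 0.529), from 2.72 FPKM in the knockout and 6.02 in the wild-type library, and Mcm7 the highest at 0.887 (0.803 to 0.980). Between them lay Mcm3 at 0.589, Mcm2 at 0.623, Mcm6 at 0.681 and Mcm4 at 0.738. Mcm7 shares exon sequence with Cops6 and Ap4m1 on the opposite strand and hosts the microRNAs Mir25 and Mir93, and whether reads were counted by strand is not given in the sources used here. The licensing factors Cdt1 and Cdc6 had ratios of 0.610 (0.477 to 0.779) and 0.507.

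None of the 3 genes of the G1/S switch was called. Ccne1 and Ccne2, the E cyclins that activate CDK2, were at 0.521 and 0.713 FPKM in the knockout HDM library against 1.62 and 1.35 in the wild-type HDM library, with differences of -0.78 and -0.45. Their ratios were 0.322 (0.194 to 0.509) and 0.529 (0.370 to 0.745) from 25 and 54 reads in the knockout library. E2f1, a transcription factor of S phase genes, had its lowest level in the knockout HDM library, at 4.41 FPKM in the knockout HDM library, 5.29 in the wild-type HDM library, 9.37 with IL-22 and 7.95 with PBS. It was, with Cdt1 and Mcm3, 1 of the members whose highest value was not in the wild-type HDM library.

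The same promoter search covered the E2F site, which S phase genes are known for, on both strands as TTCCCGC, TTTGGCGC, TTTGCCGC or TTTCGCGC. It was found in 8 of 15 S phase genes with a window (53.3%), in 1 of 24 mitosis genes (4.17%), which was Cdk1, and in 6.54% of all genes with a window. A CHR match was found in 6 of the 15 (40.0%) and a CCAAT match in 9 of the 15. No difference between these shares was tested. The 4 S phase genes with a window and the largest HDM differences are shown over the same 230 bases, with E2F, CCAAT and CHR matches in capitals. Uhrf1 lies at chr17:56303137-56303366, plus strand, the first of its windows. Rrm2 lies at chr12:24708054-24708283, plus strand. Tk1 lies at chr11:117825985-117826214, minus strand. Mcm5 lies at chr8:75109309-75109538, plus strand. Uhrf1 and Mcm5 carry an E2F match, Rrm2 and Tk1 a CHR match without these E2F letters.
Uhrf1: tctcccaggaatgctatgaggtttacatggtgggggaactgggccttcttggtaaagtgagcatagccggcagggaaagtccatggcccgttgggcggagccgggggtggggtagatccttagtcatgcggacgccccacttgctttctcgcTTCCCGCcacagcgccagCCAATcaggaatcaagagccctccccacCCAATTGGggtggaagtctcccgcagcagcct
Rrm2: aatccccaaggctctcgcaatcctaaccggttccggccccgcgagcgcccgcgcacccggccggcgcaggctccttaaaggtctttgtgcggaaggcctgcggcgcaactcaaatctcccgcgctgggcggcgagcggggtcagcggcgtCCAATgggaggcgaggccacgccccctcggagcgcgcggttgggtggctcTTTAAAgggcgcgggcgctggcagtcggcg
Tk1: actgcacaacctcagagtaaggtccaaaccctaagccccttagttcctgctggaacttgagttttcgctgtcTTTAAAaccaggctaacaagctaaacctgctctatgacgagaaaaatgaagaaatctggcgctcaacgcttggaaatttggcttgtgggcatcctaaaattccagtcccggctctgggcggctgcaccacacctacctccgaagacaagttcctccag
Mcm5: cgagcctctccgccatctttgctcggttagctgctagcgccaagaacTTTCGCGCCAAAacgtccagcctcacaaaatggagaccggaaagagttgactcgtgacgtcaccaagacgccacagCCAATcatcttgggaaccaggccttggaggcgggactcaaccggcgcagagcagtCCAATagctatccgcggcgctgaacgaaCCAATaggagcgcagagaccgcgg

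**Figure D2:**
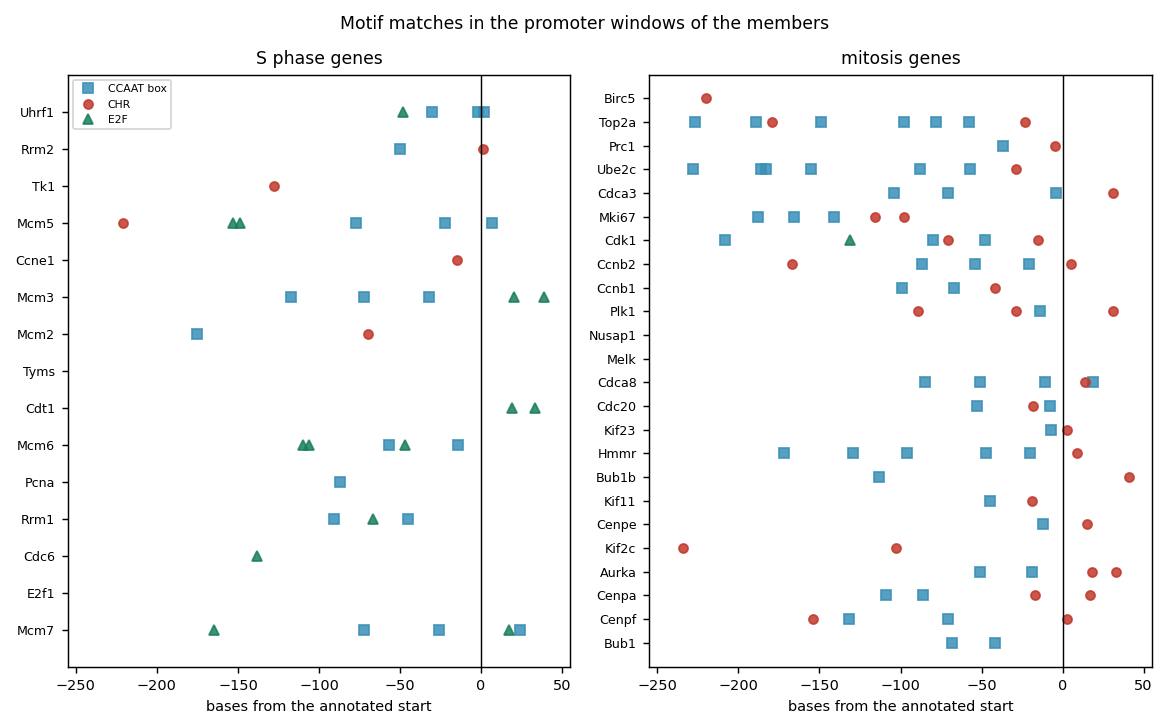
Positions of CCAAT (squares), CHR (circles) and E2F (triangles) matches, in bases from the annotated start, for 15 S phase and 24 mitosis genes with a window, ordered from the largest HDM difference down. The first window is drawn for genes with more than 1. In 18 mitosis genes a CHR match begins within 60 bases before to 50 after the start, a range not counted over all genes. An E2F match is present in 8 S phase genes and 1 mitosis gene.

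**Figure D3:**
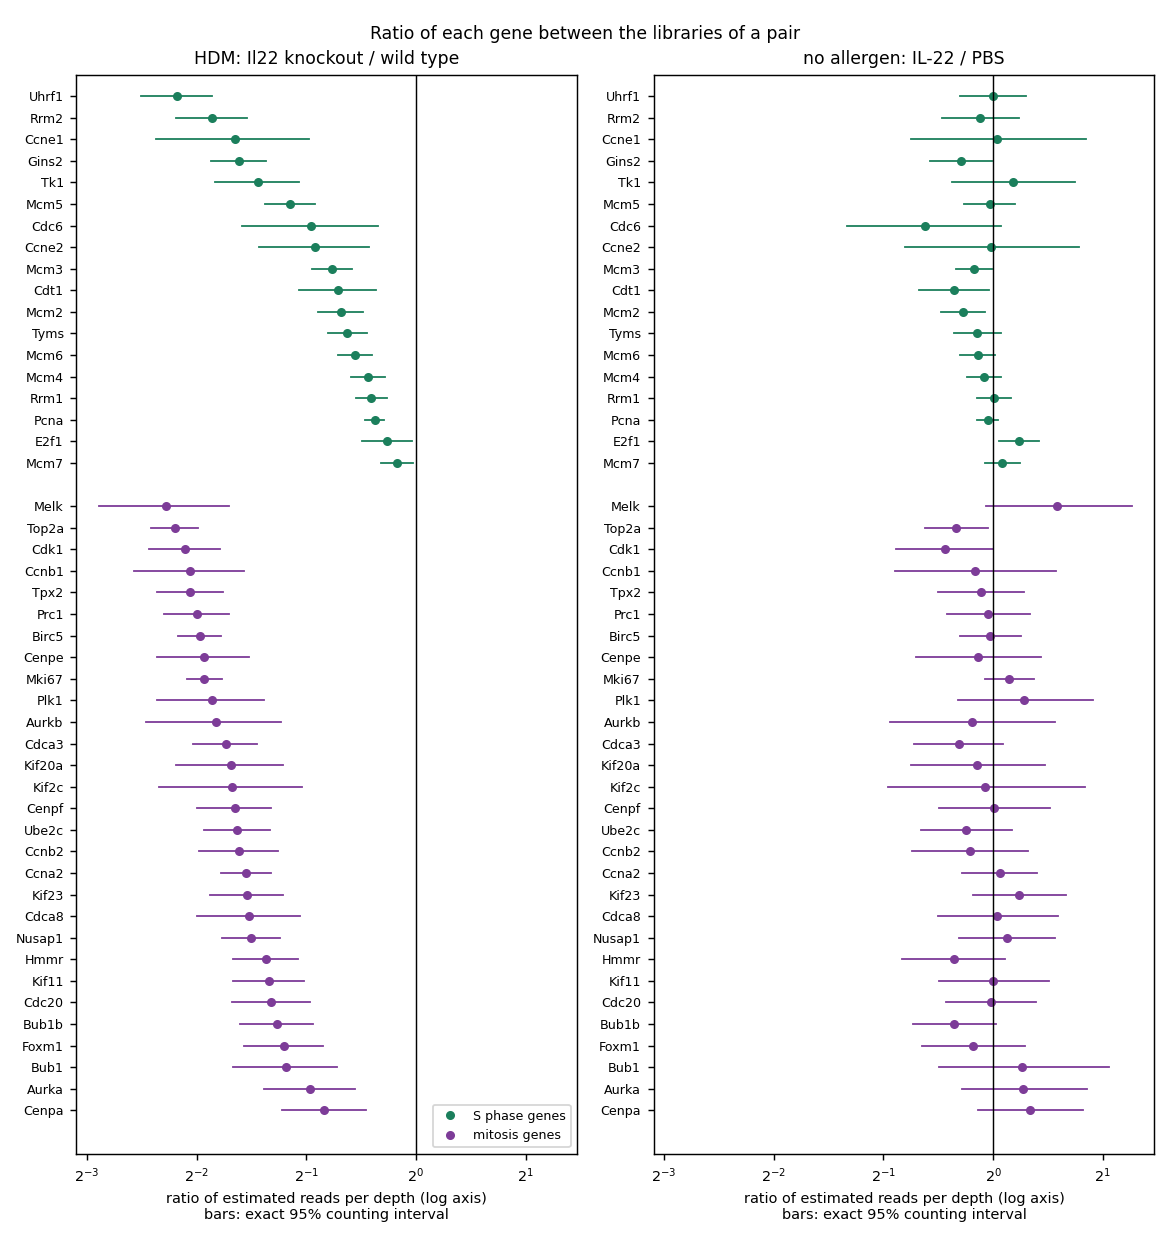
Ratio of estimated reads per depth of each gene, on a log axis, for knockout over wild type with HDM (left) and IL-22 over PBS (right), with exact 95% counting intervals as bars and genes in the order of the HDM ratio. All 47 intervals lie below 1 on the left, and 40 of 47 hold 1 on the right. Intervals were not computed for all genes.

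Recombinant IL-22 was compared with PBS in wild-type lungs, with no allergen named in the labels. None of the 47 genes was called, out of 32 that passed the filter, where 0.189% of 13233 measured genes were called lower with IL-22 and 0.597% higher. The median FPKM ratio of IL-22 over PBS was 0.955 over the 18 S phase genes and 0.978 over the 29 mitosis genes, with a range over all 47 from 0.636 for Cdc6 to 1.53 for Melk. The counting interval held 1 for 40 of the 47 genes, and the share of all genes with such an interval was not computed. It lay above 1 for E2f1, at 1.18 (1.04 to 1.33), and below 1 for 6 genes, the S phase genes Cdt1, Mcm2, Mcm3 and Gins2 and the mitosis genes Cdk1 and Top2a. Top2a was at 1.49 FPKM in the IL-22 library and 1.87 in the PBS library, a ratio of 0.795 (0.649 to 0.970). Cdt1 was at 3.02 and 3.89 FPKM. Most mitosis genes were low in both libraries, and 12 of the 29 had a mean under 1 FPKM, so a small change in them was not detectable at this depth. For Ccnb1 the interval of the ratio ran from 0.538 to 1.49.

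**Figure D4:**
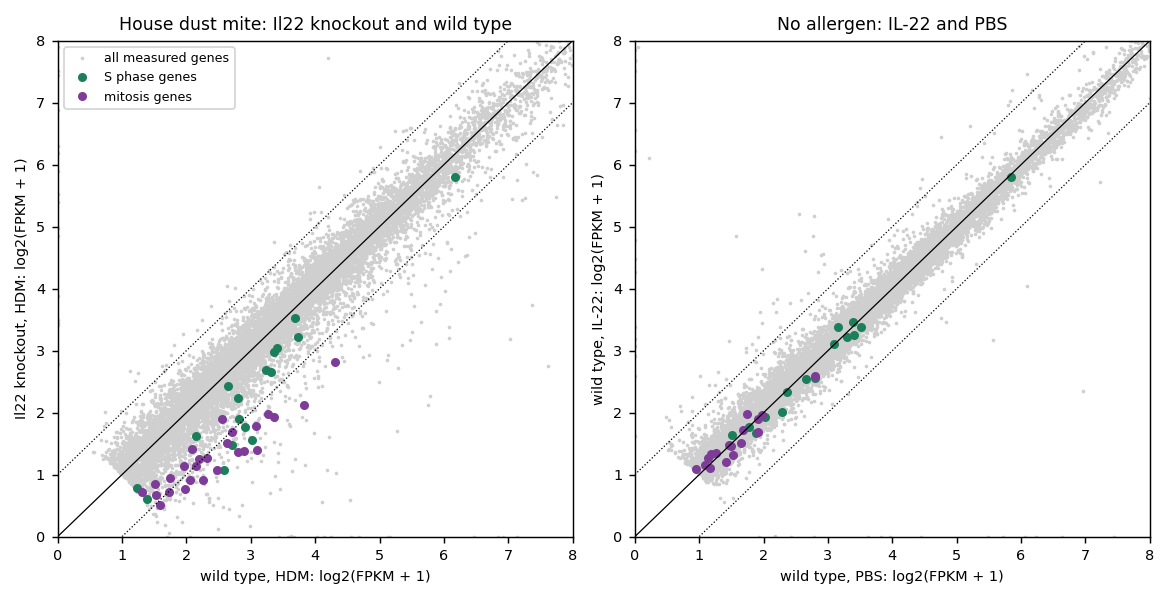
Each measured gene as log2(FPKM + 1), knockout against wild type with HDM (left) and IL-22 against PBS (right), with all measured genes in grey, S phase genes in green and mitosis genes in purple. Solid lines mark equal values and dotted lines a difference of 1, past which 22 members lie on the left and none on the right.

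Since each pair has its own table, and whether the authors scaled the tables together is not given, levels of the 4 libraries are set side by side with no ratio across the pairs. The mean log2(FPKM + 1) of the 29 mitosis genes was 1.22 in the knockout HDM library, 2.30 in the wild-type HDM library, 1.17 with IL-22 and 1.19 with PBS. The wild-type HDM library held the highest value for all 29 of them, and the lowest value was in the knockout HDM library for 10, with IL-22 for 11 and with PBS for 8. For the 18 S phase genes the means were 2.21, 2.89, 2.43 and 2.49 in the same order, and the lowest value was in the knockout HDM library for 13.

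Other genes of the cell cycle, outside the 47, are given by list. In the HDM pair 2.42% of all measured genes were called lower and 0.549% higher. Of 37 measured further mitosis genes, 14 were called lower and none higher (median difference -0.89, 35 below 0). The largest differences were those of Pbk, a mitotic kinase, at 0.861 FPKM in the knockout and 4.54 in the wild-type HDM library, of Nuf2, a kinetochore protein, at 0.954 and 4.52, of Cdkn3 and of Racgap1. Most of the 14 called genes, Pbk, Nuf2 and Cdkn3 among them, were under 1 FPKM in the knockout. They passed the filter only through the wild-type HDM library, so this count and the median of -0.89 are partly set by the filter. Without a filter, the median over all 56 further mitosis genes found was -0.64, with 54 below 0. Of 30 measured further replication genes, 1 was called lower, the GINS subunit Gins1 at 1.74 and 4.61 FPKM (median -0.34). None of 15 G1 cyclin, CDK and E2F genes (median -0.01), 16 CDK inhibitors and brakes (0.14), 13 APC/C subunits (0.07) or 13 reference genes (-0.05) was called in either direction. The largest difference among the brakes was that of Cdkn1c, the CDK inhibitor p57, at 39.3 FPKM in the knockout and 22.02 in the wild-type library, and Myc, a driver of cell growth, was at 3.94 and 6.97. In the IL-22 pair no gene of these 6 lists was called, where 0.189% of all measured genes were called lower and 0.597% higher. The list medians there lay between -0.06 and 0.04. Cdkn3, a phosphatase of the cell cycle, was the mitosis gene of these lists with the largest difference there, at 0.546 FPKM in the IL-22 library and 1.49 in the PBS library (-0.69), a ratio of 0.367 that passes the rule on the plain ratio.

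**Figure D5:**
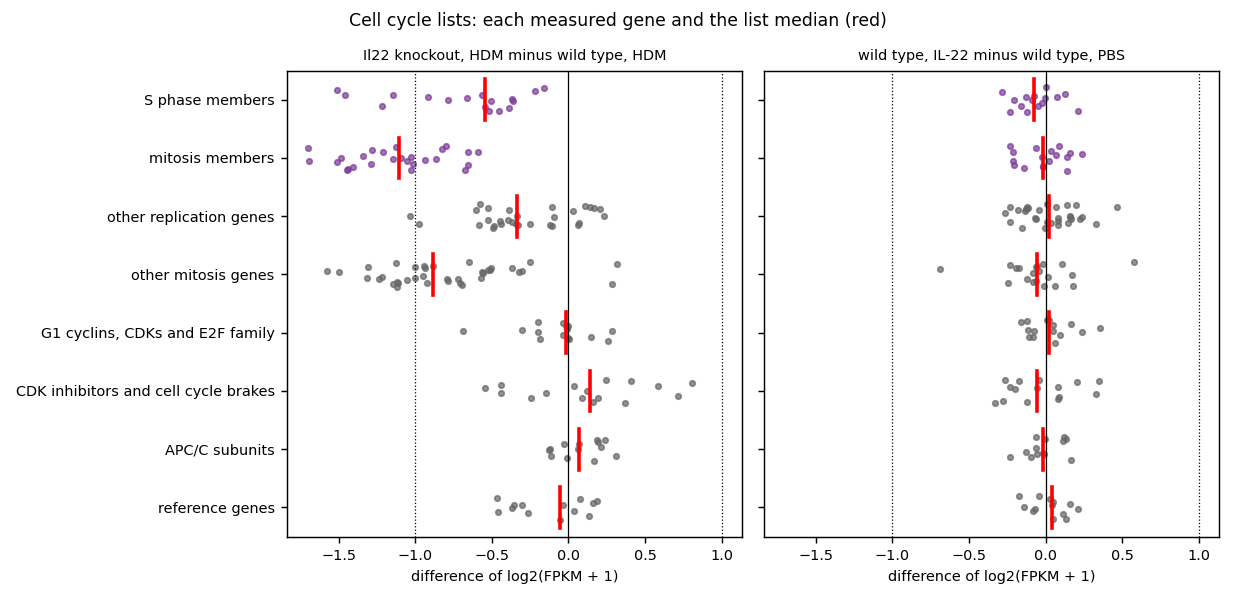
Difference of log2(FPKM + 1) for each measured gene of 8 gene lists (points) with the list median (red), for knockout minus wild type with HDM (left) and IL-22 minus PBS (right). The medians of the S phase and mitosis members over measured genes are -0.55 and -1.11 on the left, and the medians of the other 6 lists on the right lie between -0.06 and 0.04.

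Markers of several cell types moved along with the cell cycle genes in the HDM pair, and their part in these differences was not tested. Over all measured genes of this pair, 2.42% were called lower and 0.549% higher. Of 14 measured monocyte and interstitial macrophage markers 7 were called lower and none higher (median -0.98), with summed levels of 8011 FPKM in the knockout and 7076 in the wild-type library, of which Lyz2 alone held 7734 and 6457. C1qb, a complement subunit made by macrophages, was at 43.2 and 153 FPKM in the HDM pair. Of 11 measured T cell markers none was called, but 10 lay below 0 (median -0.58), with summed levels of 59.2 and 90.6 FPKM. Of 9 measured dendritic cell markers 2 were called lower (median -0.61), with sums of 34.7 and 48.3 FPKM. By the size rule, markers of macrophages and dendritic cells thus held called genes and those of T cells none. The T cell and dendritic cell medians were close all the same, at -0.58 and -0.61. Goblet cell markers were called lower in 5 of 7 (median -1.68), with sums of 395 and 1526 FPKM, of which Clca3 alone held 326 and 1343. Of 8 measured B cell markers 1, Fcer2a, was called lower (median -0.07), with sums of 50.2 and 58.8 FPKM. The B cell list therefore lay close to the median of all genes. Of 3 measured eosinophil markers 2, Prg2 and Alox15, were called lower, with sums of 5.35 and 14.1 FPKM over the whole list. Siglec5 held 4.35 and 4.06 of these sums, Prg2 0.173 and 2.83, and Alox15 0.363 and 5.35. Prg2 and Alox15 thus passed the filter only through the wild-type HDM library. The IL-22 and PBS libraries held 2.81 and 3.45 FPKM of Alox15, so its RNA was not limited to the HDM pair. The defining granule genes of this list, Prg3 and Epx, were at 0 in the knockout library. In the wild-type HDM library they were near 0, at 0.0536 and 0.0161 FPKM. Erythroid markers were called higher in 4 of 5 (median 1.17), the direction opposite to the cell cycle genes, with sums of 12943 and 6025 FPKM. Of 10 measured alveolar macrophage markers 2 were called lower and 1 higher (median -0.10), with sums of 715 and 2895 FPKM, of which Chi3l3 alone held 367 and 2438. Neutrophil markers had 1 of 7 called lower and 2 higher, smooth muscle markers 1 of 7 lower, and fibroblast markers 2 of 10 higher. The other 12 of the 22 marker lists had no gene called in the HDM pair, T cell markers among them. The 6 immature thymocyte markers summed to 4.20 FPKM in the knockout and 4.59 in the wild-type HDM library, and none was called. Cd1d1 held 3.09 and 3.06 of these sums, Ptcra was at 0.530 and 0.754 FPKM, Themis at 0.474 and 0.655, and Dntt at 0.0978 and 0.128. The recombination genes Rag1 and Rag2 were at or near 0, with Rag1 at 0.0113 FPKM in the knockout and 0 in the wild-type library and Rag2 at 0 in both. In the IL-22 pair 3 marker lists held genes called higher and none held a gene called lower, against 0.597% of all measured genes called higher and 0.189% lower. Of 7 smooth muscle markers 3 were called higher and all 7 lay above 0 (median 0.98), with sums of 1049 FPKM with IL-22 and 531 with PBS. Of 14 monocyte and macrophage markers 3 were called higher, C1qb among them at 129 and 56.0 FPKM. Of 6 measured goblet cell markers 1 was called higher, Clca3 at 27.9 FPKM in the IL-22 library and 5.79 in the PBS library.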

How the data were processed

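Lung RNA of 4 groups was sequenced, 1 library each, and groups were taken from the sample titles. The authors deposited FPKM per gene in 2 tables, 1 for the HDM pair and 1 for the IL-22 and PBS pair, made with TopHat2, Cufflinks 2.2.1, CASAVA 1.8.2 and the build mm10 per the submitters' processing notes, which give no order or role of these tools. The settings are not stated, and a different normalization of the tables would shift levels between them.

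The tables were joined on symbol and accession, 25 symbols turned into dates were restored from accessions, and rows of a symbol were added. Differences are of log2(FPKM + 1), without a test, since a group has 1 library. The size rule is a difference of at least 1 with a mean FPKM of at least 1. Estimated reads are FPKM times depth times the GENCODE M21 transcript length less 200 bases. Depth was the lowest value at which most low FPKM values came out whole: 64.6 to 67.1% of values of up to 6 reads were whole to within 0.1 read (20% by chance). Exon overlaps with another GENCODE gene were found for 14 members and named pseudogenes for 4 (Tyms, Pcna, Ccnb1 and Ccnb2), whose reads can be shared.

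Members, lists, motifs and rules were chosen with earlier results of these data known. All 47 members are named whatever their values, and up to 4 genes of another list by the size of the difference. Some genes of the other lists, and 1 such list, are not reported here. Of the members 39 had a RefSeq promoter window. Alternatives were a pseudocount of 0.1, a mean FPKM of 5 as filter or none, rescaling by the median ratio or total, and a size rule of 1.5-fold. A plain FPKM ratio of 0.5 was added after seeing the data. The steps were tested on simulated data. Tools were scipy 1.17.1, numpy 2.4.6, matplotlib 3.10.9, pandas 2.3.3 and Python 3.11.15.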

Additional observations from a re-analysis of the deposited data

How the results depend on the processing

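Each member measured in the HDM pair kept its direction under the other pseudocount, both rescalings and both filters (11 members passed the filter at 5). With a pseudocount of 0.1 the median HDM differences of measured genes were -0.69 (S phase) and -1.55 (mitosis), and the calls over all genes were 488 lower and 131 higher in the HDM pair and 132 higher in the IL-22 pair. A mean FPKM of at least 5 left 4 members called lower, 0 of 7 S phase and 4 of 4 mitosis genes (medians -0.39 and -1.46), and 193 genes of the whole table called lower, since fewer genes were tested, with a single mitosis gene at -0.21 in the IL-22 pair. Of these mitosis genes, Ccna2, Cdca3 and Birc5 passed only through the wild-type HDM library, with 2.94, 2.79 and 3.35 FPKM in the knockout. Their calls and the mitosis median at this filter are thus partly set by the filter. Over the whole table of the HDM pair, 193 of the 9056 genes that passed this filter were called lower. A size rule of 1.5-fold called 7 of 17 measured S phase genes and all 26 measured mitosis genes lower in the HDM pair. Over the 13285 genes measured in the HDM pair this rule called 852 lower and 429 higher. Over the 13233 genes measured in the IL-22 pair it called 61 lower and 259 higher. Rescaling to a common total moved all genes of the IL-22 pair up by 0.10 (log2), which put the S phase median at 0.0185, against -0.08 as deposited. A plain FPKM ratio of 0.5, chosen after seeing the data, called 511 genes lower and 147 higher in the HDM pair and 36 lower and 143 higher in the IL-22 pair. No paired analysis was possible because each group has 1 library, and leaving out a replicate was not possible for the same reason. Differences between 2 libraries carry no estimate of the spread between mice.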
